A study of Mus musculus with 12 samples.

Results

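The IL-17 receptor family was examined in OTII cells together with *Chdh* and *Actr8*, the neighbours whose exons overlap those of *Il17rb*. The 7 genes were taken by symbol from the count files, where they are 7 of 40840 genes listed, and comprise the 5 receptor chains *Il17ra*, *Il17rb*, *Il17rc*, *Il17rd* and *Il17re* plus *Chdh* and *Actr8*. All 7 were among the 13570 genes that passed the low-count filter. They were chosen by values already seen in these libraries, namely the differences of *Il17rb*, *Chdh* and *Il17re* between recipient genotypes, so genotype differences of the 7 genes, and the differences of their day changes between genotypes, are a description: they carry no p-value, and counts of calls among them are given beside the background with nothing read from them.

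OTII cells are CD4+ T cells from C57BL/6-Tg(TcraTcrb)425Cbn/J mice, whose transgenic T-cell receptor recognizes an ovalbumin (OVA) peptide. Donor OTII cells were transferred into WT or *Il6-/-* recipients, which received 100 µg house dust mite extract containing endotoxin with 5 µg OVA intranasally, and donor cells were later sorted from mediastinal lymph nodes, with B220, CD4, CD44 and CD45.1 as the stains given for such sorts. The 4 groups were cells from WT recipients on Day 3, from *Il6-/-* recipients on Day 3, from WT recipients on Day 5 and from *Il6-/-* recipients on Day 5, with 3 libraries in each group. The genotype is that of the recipient and not of the sequenced cells, so *Il6* itself gives no check of the labels. The sample labels name blood as the tissue, whereas the series description names the lymph node, and neither gives the age of the mice. The labels do not say whether replicates were separate mice or pools, so p-values measure only the spread between these libraries.

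IL-17 receptors work as pairs of chains. IL-17RA is the shared chain, which joins IL-17RC to bind IL-17A and IL-17F, IL-17RB to bind the epithelial cytokine IL-25, and IL-17RE to bind IL-17C. IL-17RD is a further chain, also known as an inhibitor of growth factor signaling. In lymphocytes IL-17RB is known from cells of type 2 immunity and IL-17RE from Th17 cells. *Chdh* encodes choline dehydrogenase, the mitochondrial enzyme that oxidizes choline towards betaine, and *Actr8* encodes a nuclear actin-related subunit of the INO80 chromatin remodeling complex.

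The libraries held 16125947 to 26111657 reads on genes (median 19727354), so that 3 counts were worth 0.117 to 0.176 CPM, that is, counts scaled to the library total. All levels are CPM scaled by edgeR's TMM factors, and differences are log2 fold changes from edgeR's quasi-likelihood fit of all 12 libraries with their standard error (SE). Each FDR was adjusted by the Benjamini-Hochberg method across the 13570 genes. Across all genes, 7.52% were called higher and 6.19% lower in *Il6-/-* recipients on Day 3 at an FDR under 0.05, against 1.27% and 3.35% on Day 5. With the replicate number as a block among the Day 5 libraries, whose same-numbered samples deviated together, these Day 5 shares were 5.06% and 5.90%. From Day 3 to Day 5, 29.5% rose and 27.1% fell in WT recipients, and 30.4% rose and 30.1% fell in *Il6-/-* recipients. Between 60.2 and 62.2% of the counted alignments fell on genes in the libraries of Day 3 and 52.5 to 56.7% in those of Day 5, while 11.7 to 12.9% and 15.2 to 17.3% lay outside annotated features, and the part of this in the day changes was not tested. The direction of small day differences depended on the scaling, since upper-quartile scaling raised the day difference of the median gene by 0.20 for WT and 0.23 for *Il6-/-* recipients.

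*Il17rb* and *Chdh* lie head to head on mouse chromosome 14 (GRCm39, GENCODE vM39). *Il17rb* occupies chr14:29716082-29730956 on the minus strand, *Chdh* occupies chr14:29730856-29763372 on the plus strand, and their first exons overlap by 101 bases. *Actr8*, at chr14:29700294-29728311 on the plus strand, runs into the other end of *Il17rb*. Exons of any *Actr8* transcript share 2472 bases with exons of *Il17rb*, which is 38.8% of the exon bases of *Il17rb*, and 486 of those bases lie in the last exons of the canonical transcripts. The reads were counted without strand, so a read in these shared bases could not be told apart between the genes. *Chdh* exons also share 1477 bases with exons of *Cacna1d*, none of them in the canonical transcripts.

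**Figure D1:**
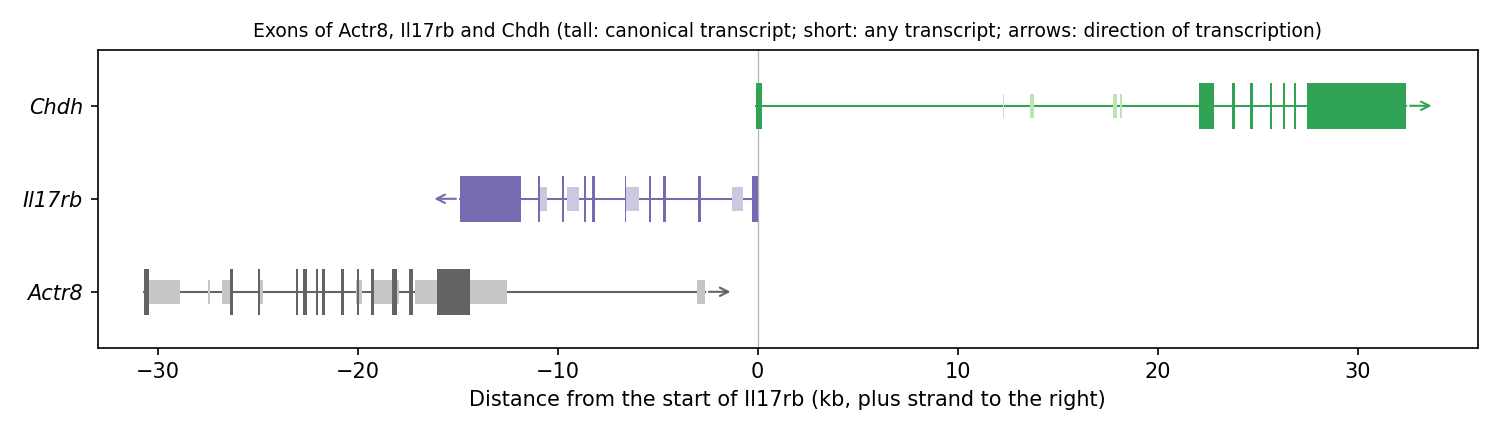
Exons of *Actr8*, *Il17rb* and *Chdh* by distance from the start of *Il17rb* (x axis, kb), with tall boxes for the canonical transcript, short boxes for any other annotated transcript and arrows for the direction of transcription. *Il17rb* and *Chdh* start close together and run apart, while *Actr8* and *Il17rb* run into each other.

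The promoter window of *Il17rb* and that of the *Chdh* start next to it are shown because both genes moved together and the windows overlap. The RefSeq windows (GRCm38.p6, 250 bases before to 50 after the start) each matched GRCm39 at 1 place, *Il17rb* at chr14:29730804-29731103 (minus strand) and *Chdh* at chr14:29730707-29731006 (plus strand). The starts lie 104 bases apart and the windows share 203 bases. Capitals mark the only match to 4 motifs searched on both strands of each window, which do not overlap one another here.
Il17rb promoter, 5′ to 3′: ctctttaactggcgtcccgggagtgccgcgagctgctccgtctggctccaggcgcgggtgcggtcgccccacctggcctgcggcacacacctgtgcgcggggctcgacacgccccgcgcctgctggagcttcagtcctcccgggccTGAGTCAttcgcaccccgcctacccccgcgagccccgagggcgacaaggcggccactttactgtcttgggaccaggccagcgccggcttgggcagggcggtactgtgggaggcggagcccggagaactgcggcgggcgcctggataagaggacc
Chdh promoter, 5′ to 3′: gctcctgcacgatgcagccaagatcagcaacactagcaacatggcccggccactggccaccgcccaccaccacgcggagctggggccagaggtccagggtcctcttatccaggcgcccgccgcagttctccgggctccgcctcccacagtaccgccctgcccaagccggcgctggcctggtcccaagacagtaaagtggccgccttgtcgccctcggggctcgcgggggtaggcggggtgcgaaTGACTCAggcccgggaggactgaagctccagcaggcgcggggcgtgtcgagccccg
The capitals are the same 7 bases, chr14:29730951-29730957, read from either strand. They match TGANTCA, the core letters bound by AP-1 factors, which 7.79% of the 32544 RefSeq promoter windows held. The core letters of STAT sites, TTCNNNGAA, were in 8.33% of all windows. The GATA-type letters TGATAA were in 8.91% of them. The letters of a nuclear receptor site of the ROR type, TAGGTCA, were in 2.61%. No match to these last 3 lay in either window shown. RefSeq has 2 further *Chdh* starts, 12407 and 13737 bases from that of *Il17rb*, whose windows are not shown. The window of the nearer one held 1 match to the STAT letters, at -156 to -148 from its start, and the other held no match to the 4 motifs. GC content was 72.0% for *Il17rb* and 70.3% for *Chdh*, against a median of 53.0% over all windows. The windows held 32 and 26 CpG pairs, against a median of 7.

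The highest *Il17rb* levels were those of OTII cells that had been sorted on Day 5 from *Il6-/-* recipients. It was at 41.6, 40.9 and 39.1 CPM in WT recipients and at 51.4, 50.3 and 54.2 CPM in *Il6-/-* recipients on Day 3. On Day 5 it was at 40.7, 43.7 and 47.7 CPM in WT recipients and at 87.9, 108.3 and 109.4 CPM in *Il6-/-* recipients. Every library from *Il6-/-* recipients lay above every library from WT recipients, and the *Il6-/-* libraries of Day 5 lay above all others. The fitted difference between genotypes was 0.36 (SE 0.10) on Day 3 and 1.21 (SE 0.10) on Day 5, a 2.31-fold difference.

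*Chdh* took nearly the same course. Its levels on Day 3 were 47.9, 42.3 and 45.6 CPM in WT recipients and 53.3, 57.9 and 62.2 CPM in *Il6-/-* recipients. On Day 5 they were 38.4, 43.9 and 43.6 CPM in WT recipients and 72.4, 109.8 and 83.1 CPM in *Il6-/-* recipients. The genotypes did not overlap on either day, and the *Il6-/-* libraries of Day 5 were the most spread. The fitted difference was 0.35 (SE 0.13) on Day 3 and 1.07 (SE 0.13) on Day 5, or 2.11-fold.

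*Actr8*, at the other end of *Il17rb*, varied less. It was at 72.4, 67.8 and 70.1 CPM for WT and 75.1, 74.7 and 70.8 CPM for *Il6-/-* recipients on Day 3, where the genotypes overlapped. On Day 5 it was at 72.8, 64.1 and 61.7 CPM for WT and 81.2, 87.6 and 75.2 CPM for *Il6-/-* recipients, which did not overlap. The fitted differences were 0.07 (SE 0.08) and 0.30 (SE 0.09).

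The number of *Chdh* counts per *Il17rb* count was 1.15, 1.03 and 1.17 in WT recipients and 1.04, 1.15 and 1.15 in *Il6-/-* recipients on Day 3. On Day 5 it was 0.944, 1.01 and 0.913 in WT recipients and 0.824, 1.01 and 0.760 in *Il6-/-* recipients. The genotypes overlapped on both days. *Actr8* counts per *Il17rb* count ranged from 1.29 to 1.79 in WT recipients on Day 5 and from 0.687 to 0.924 in *Il6-/-* recipients, which did not overlap. Whether reads in shared exons contributed to the likeness of *Il17rb* and *Chdh* was not tested.

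**Figure D2:**
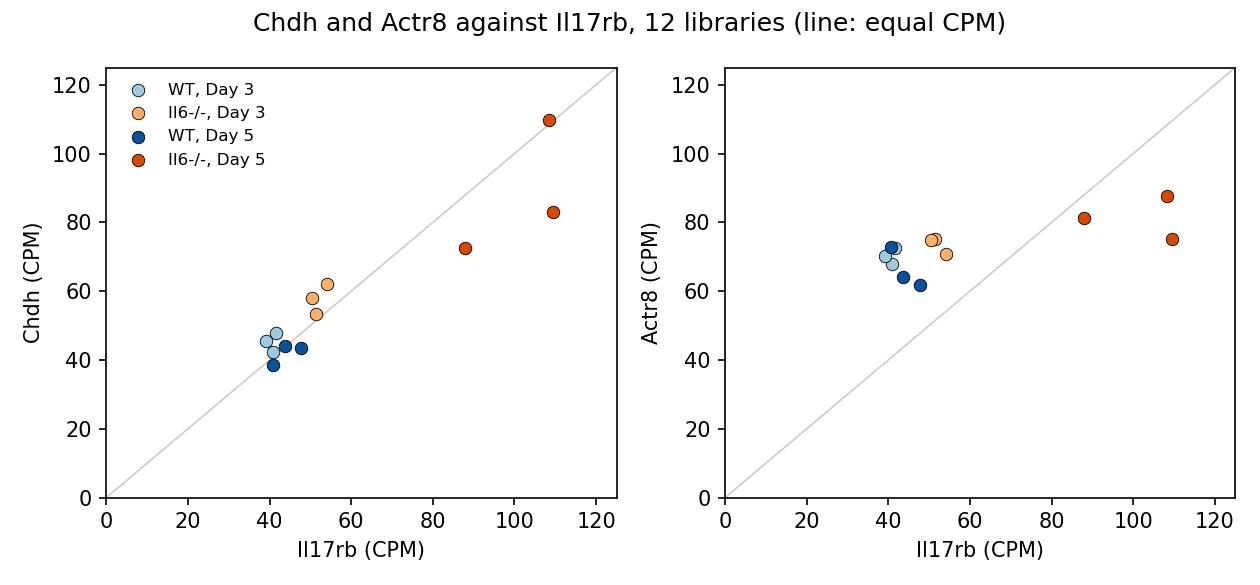
*Chdh* (left) and *Actr8* (right) against *Il17rb*, all in CPM, with 1 point per library coloured by group and a line of equal CPM. *Chdh* followed *Il17rb* up to the 3 libraries from *Il6-/-* recipients on Day 5, while *Actr8* stayed between 61.7 and 87.6 CPM.

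*Il17re*, at chr6:113435445-113447719 on the plus strand, went the other way and was low throughout. It had 56, 36 and 52 counts in WT recipients against 4, 1 and 2 in *Il6-/-* recipients on Day 3. On Day 5 it had 25, 22 and 26 counts in WT recipients against 4, 5 and 3 in *Il6-/-* recipients. The genotypes did not overlap on either day. In CPM the groups had means of 2.26 ± 0.526 (SD, n = 3) for WT and 0.120 ± 0.0820 for *Il6-/-* recipients on Day 3. The Day 5 means were 1.21 ± 0.0654 and 0.220 ± 0.0688 CPM, respectively. The *Il6-/-* means of 0.120 and 0.220 CPM lie close to what 3 counts are worth. The fitted difference was -4.18 (SE 0.53) on Day 3 and -2.44 (SE 0.50) on Day 5. The gene passed the low-count filter through its WT libraries.

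*Il17ra*, which encodes the chain shared by the receptor pairs (chr6:120440104-120464520, plus strand), had the highest CPM of the 5 chains. On Day 3 it was at 253.8, 268.9 and 259.8 CPM in WT recipients and at 146.2, 148.9 and 173.6 CPM in *Il6-/-* recipients. On Day 5 it was at 259.1, 236.5 and 232.1 CPM in WT recipients and at 210.2, 215.3 and 178.8 CPM in *Il6-/-* recipients. WT libraries lay above *Il6-/-* libraries on both days, with the wider gap on Day 3. The fitted difference was -0.74 (SE 0.09) on Day 3 and -0.27 (SE 0.09) on Day 5.

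*Il17rc* and *Il17rd* were near the limit of counting. *Il17rc*, which encodes the partner of IL-17RA for IL-17A and IL-17F, begins 668 bases beyond the end of *Il17re* (chr6:113448388-113460103, plus strand). It had 21, 14 and 12 counts for WT and 4, 19 and 1 for *Il6-/-* recipients on Day 3, and 19, 9 and 5 for WT and 2, 7 and 16 for *Il6-/-* recipients on Day 5. The genotypes overlapped on both days, and no difference was detectable at this depth. *Il17rd* (chr14:26760889-26829243, plus strand) had 2, 6 and 2 counts for WT and 5, 4 and 3 for *Il6-/-* recipients on Day 3, and 5, 12 and 16 for WT and 19, 8 and 8 for *Il6-/-* recipients on Day 5. The genotypes overlapped here too. The fitted genotype differences of both genes had SEs of 0.60 to 0.84.

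**Figure D3:**
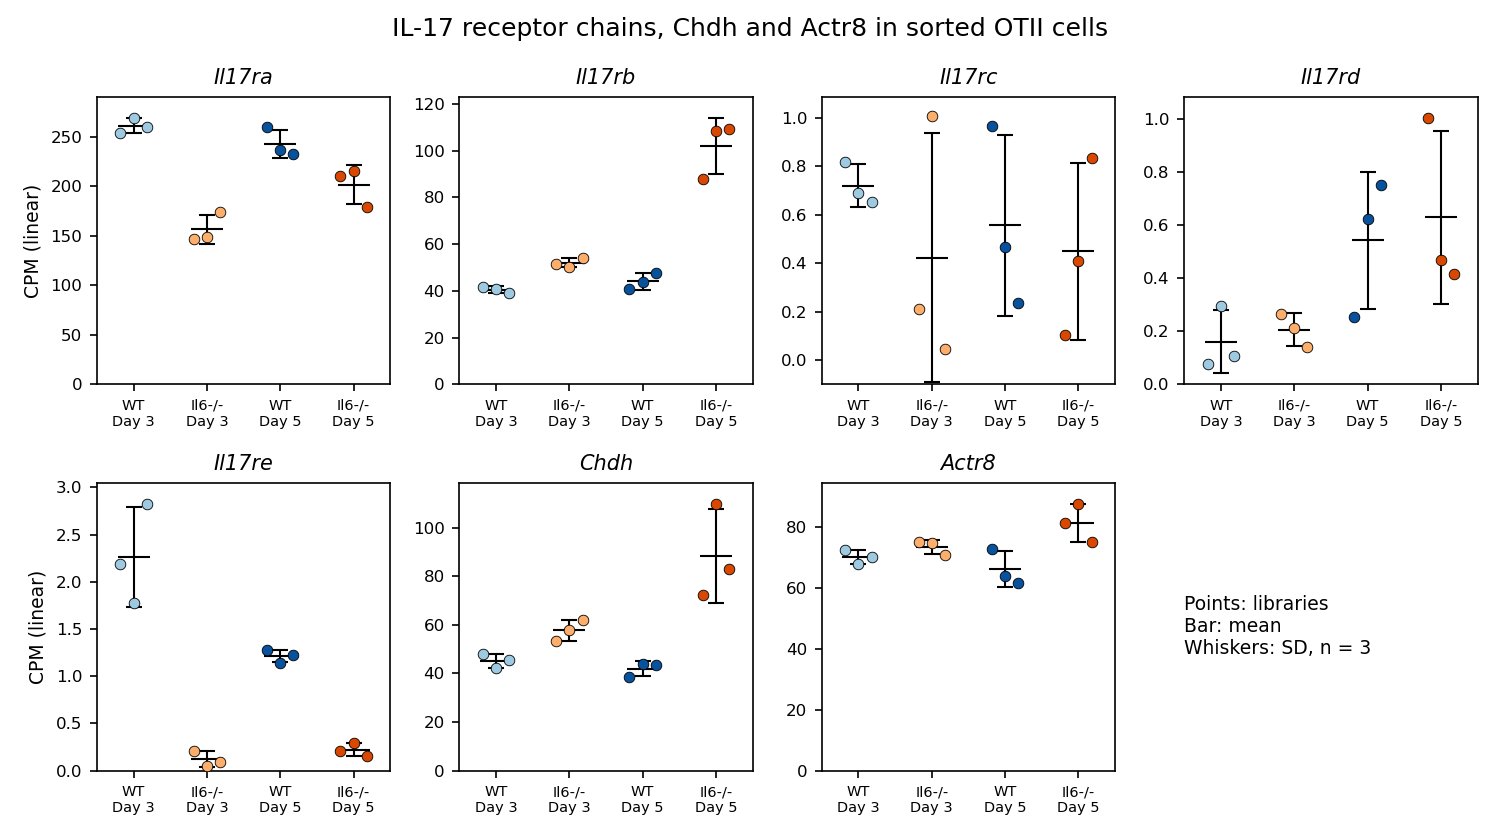
Levels of the 7 genes in CPM (y axes, linear, a separate scale for each gene) in the 4 groups, with points for libraries, bars for means and whiskers for SD (n = 3). *Il17rb* and *Chdh* were highest in *Il6-/-* recipients on Day 5, *Il17re* and *Il17ra* were higher in WT recipients on both days, and *Il17rc* and *Il17rd* did not exceed 1.01 CPM.

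By edgeR's quasi-likelihood test, 1 of the 7 genes was called higher (background 7.52%) and 2 were called lower (6.19%) in *Il6-/-* recipients on Day 3. On Day 5, 2 were called higher (1.27%) and 1 was called lower (3.35%), and the block among the Day 5 libraries raised the count from 3 to 5. Nothing is read from these counts, since the genes were chosen with these differences known.

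Compared per kb of exon, the levels fell into a high and a low group of genes, whichever length was used. Over all exon bases, in WT recipients on Day 3 *Il17ra* stood at 29.7 ± 0.866 CPM per kb (SD, n = 3), *Actr8* at 6.86 ± 0.228, *Il17rb* at 6.36 ± 0.204 and *Chdh* at 6.19 ± 0.390. *Il17re* at 0.386 ± 0.0896, *Il17rc* at 0.159 ± 0.0193 and *Il17rd* at 0.0136 ± 0.0100 CPM per kb came last. The order of *Actr8*, *Il17rb* and *Chdh* depended on the length. Without the exon bases shared with other genes *Il17rb* was at 10.7 ± 0.342, *Actr8* at 9.08 ± 0.302 and *Chdh* at 7.90 ± 0.497 CPM per kb. On the canonical transcripts, a length added after the data were seen, *Actr8* came first, above *Il17rb* at 9.64 ± 0.309 and *Chdh* at 6.75 ± 0.425 CPM per kb.

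In *Il6-/-* recipients on Day 5 *Il17ra* was at 23.0 ± 2.25, *Il17rb* at 16.0 ± 1.90, *Chdh* at 12.1 ± 2.64 and *Actr8* at 7.97 ± 0.607 CPM per kb of all exon bases. The order of *Il17ra* and *Il17rb* there also depended on the length, since without shared bases *Il17rb* was at 26.8 ± 3.19 CPM per kb against the same 23.0 of *Il17ra*. On the canonical transcripts *Il17rb* was at 24.2 ± 2.88 and *Il17ra* at 25.7 ± 2.53 CPM per kb, which did not differ beyond their spread, and on their unshared bases *Il17rb* was at 62.4 ± 7.41. *Il17re*, *Il17rc* and *Il17rd* had means from 0.0375 to 0.0991 CPM per kb of all exon bases in this group, and these did not differ beyond their spread.

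The change from Day 3 to Day 5 was compared within each recipient genotype. It shares libraries with the genotype differences the genes were chosen by and is therefore not independent of them. In WT recipients *Il17rb* differed between days by 0.12 (SE 0.10, FDR = 0.306), *Chdh* by -0.11 (SE 0.13, FDR = 0.487) and *Actr8* by -0.08 (SE 0.08, FDR = 0.423). *Il17ra* differed by -0.10 (SE 0.09, FDR = 0.329), and under upper-quartile scaling the differences of *Chdh*, *Actr8* and *Il17ra* were positive. *Il17rb* was the only one of these that a scaling took past the threshold, at 0.32 (FDR = 0.0101) with upper-quartile scaling. *Il17re* differed by -0.89 (SE 0.41, FDR = 0.0739), and *Il17rc* by -0.38 (SE 0.80, FDR = 0.702). *Il17rd* was the 1 member called, at 1.75 (SE 0.69, FDR = 0.0420), beside a background of 29.5% of all genes called higher and 27.1% called lower. The WT groups of *Il17rd* overlapped, and the call was lost without any of 9 of the 12 libraries, where the FDR was 0.0528 to 0.165. The call stayed without WT Day 3 replicate 2, WT Day 5 replicate 1 and *Il6-/-* Day 5 replicate 1. With the block among the Day 5 libraries it was also lost (FDR = 0.0585). *Il17rd* passed the low-count filter only through Day 5 libraries, the day on which it was higher. Its day differences are therefore not independent of the filter.

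In *Il6-/-* recipients 3 of the 7 genes rose from Day 3 to Day 5, beside 30.4% of all genes called higher and 30.1% called lower. *Il17rb* rose by 0.97 (SE 0.10, FDR = 5.76e-07), a 1.96-fold change. *Chdh* rose by 0.61 (SE 0.13, FDR = 7.03e-04) and *Il17ra* by 0.37 (SE 0.09, FDR = 0.00246). These 3 kept their calls without any 1 library and under all 8 other settings. The same *Il6-/-* libraries enter the genotype differences by which *Il17rb* and *Chdh* were chosen. Neither these FDRs nor the kept calls are independent of that choice. *Il17rd* differed by 1.60 (SE 0.67, FDR = 0.0516), *Il17re* by 0.84 (SE 0.63, FDR = 0.263), *Actr8* by 0.15 (SE 0.08, FDR = 0.150) and *Il17rc* by 0.11 (SE 0.86, FDR = 0.917). Under upper-quartile scaling *Actr8* reached 0.37 (FDR = 9.44e-04) and *Il17rd* 1.82 (FDR = 0.0282).

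The day change of *Il6-/-* recipients minus that of WT recipients was 0.85 (SE 0.14) for *Il17rb*, 0.72 (SE 0.18) for *Chdh* and 0.47 (SE 0.13) for *Il17ra*. These 3 genes were called among the 4.92% of all genes called in either direction, again for genes chosen on the genotype differences. *Il17re* stood at 1.74 (SE 0.76), *Il17rc* at 0.49 (SE 1.18), *Actr8* at 0.23 (SE 0.12) and *Il17rd* at -0.15 (SE 0.93).

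**Figure D4:**
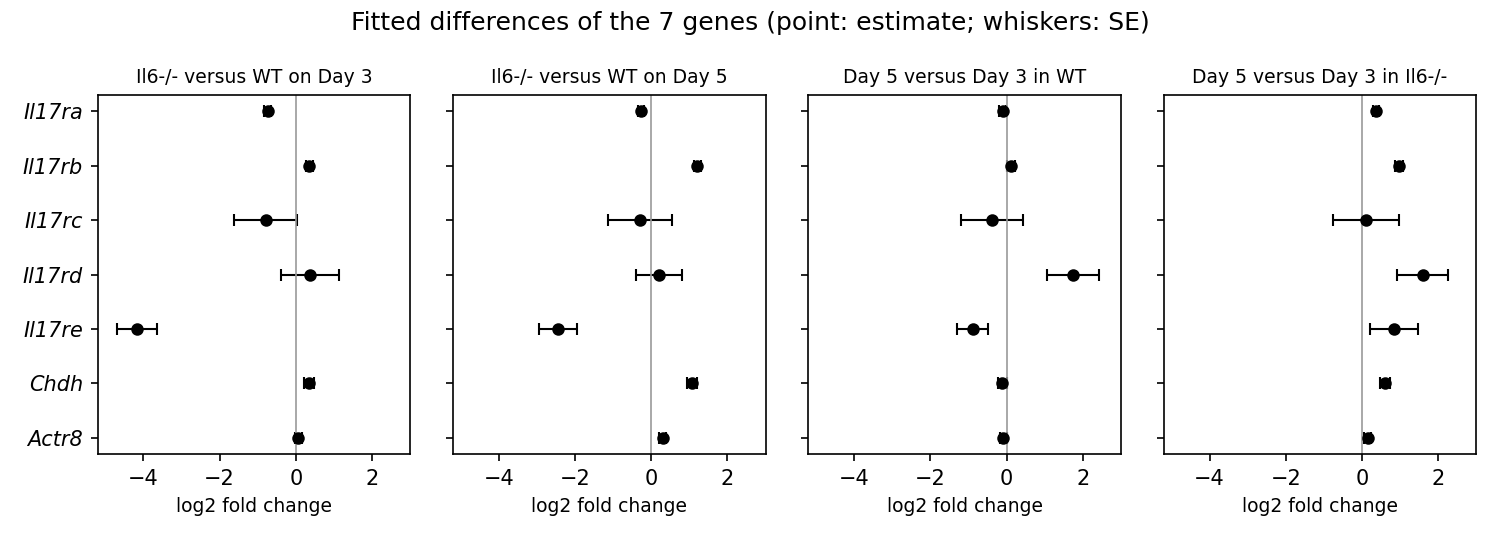
Fitted log2 fold changes of the 7 genes (x axis) in the 4 comparisons, with points for the estimate and whiskers for SE. *Il17rb* and *Chdh* lie above 0 between genotypes on both days and between days in *Il6-/-* recipients, and the whiskers of *Il17rc* and *Il17rd* are the widest with those of *Il17re*.

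The gene lists described from here on were also chosen with earlier results of these data known. Their FDRs are therefore not independent of that choice, and counts of calls in them stand beside the shares of all genes given above. Of the 6 ligand genes of the family, 2 had enough counts to be tested. *Il17f*, a ligand of IL-17RA with IL-17RC, had 25 to 28 counts in WT recipients and 1 to 4 counts in *Il6-/-* recipients on Day 3, a difference of -3.35 (SE 0.73, FDR = 0.00676). On Day 5 it had 1 to 8 counts for WT and 0 to 1 for *Il6-/-* recipients (FDR = 0.111). In WT recipients *Il17f* fell from Day 3 to Day 5 by 2.42 on the log2 scale (FDR = 0.00585). The gene passed the low-count filter only through its WT Day 3 libraries. Both called differences involve that group and are not independent of the filter. *Il17c*, the ligand of IL-17RE, had 3 to 21 counts in every library and FDRs of 0.287 or more. *Il17a* had 2 to 8 counts in WT recipients on Day 3, 0 to 1 in WT recipients on Day 5 and 0 in all 6 libraries from *Il6-/-* recipients. *Il25*, the ligand of IL-17RB, had 0 counts in all 12 libraries, where 3 counts are worth up to 0.176 CPM.

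The 12 genes for signaling next to the receptors were all tested. On Day 3 none was called between genotypes by edgeR at an FDR under 0.05, with adjusted values of 0.0716 or more, 1 gene at an unadjusted p under 0.05 and none by DESeq2, while the block among the Day 5 libraries called *Traf3ip2*. On Day 5 *Traf5*, a TRAF adaptor, was higher in *Il6-/-* recipients by 0.30 (FDR = 0.0454). *Chuk*, which encodes the kinase IKKα, was lower (-0.40, FDR = 0.0303). Both calls depended on single libraries, with FDRs up to 0.198 for *Traf5* and 0.148 for *Chuk* under the alternatives. *Traf3ip2*, which encodes the adaptor Act1 that binds the receptor chains, was at 69.8 ± 4.23 CPM for WT and 58.4 ± 5.89 CPM for *Il6-/-* recipients on Day 3 (-0.26, FDR = 0.0716), and rose from Day 3 to Day 5 in *Il6-/-* recipients by 0.44 (FDR = 5.46e-04). From Day 3 to Day 5, 2 genes of this list rose and 3 fell in WT recipients, beside 29.5% and 27.1% of all genes. In *Il6-/-* recipients 6 rose and 4 fell, beside 30.4% and 30.1%. *Tab2* rose in both genotypes (0.52, FDR = 2.56e-04 and 0.69, FDR = 1.53e-05) and *Traf6* fell in both (-0.42, FDR = 0.00325 and -0.43, FDR = 0.00275). With upper-quartile scaling *Traf6* was at -0.22 (FDR = 0.0856) and -0.20 (FDR = 0.120).

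Of 10 genes that IL-17 induces or that restrain or extend its response, 1 was higher and 2 were lower in *Il6-/-* recipients on Day 3. The shares of all genes were 7.52% and 6.19%. *Nfkbiz*, which encodes IκBζ, was at 86.4 ± 8.05 CPM for WT and 54.1 ± 1.49 CPM for *Il6-/-* recipients (-0.68, FDR = 8.45e-04). *Arid5a*, which encodes an mRNA-stabilizing protein, was at 160.0 ± 9.72 and 99.6 ± 13.6 CPM (-0.68, FDR = 3.81e-04). *Hsp90aa1*, a chaperone gene, was higher by 0.52 (FDR = 0.00995), and its FDR was 0.0611 without WT Day 3 replicate 2. None of the 10 was called between genotypes on Day 5 by edgeR, where 2 had an unadjusted p under 0.05, DESeq2 called 2 and the block among the Day 5 libraries called *Elavl1* and *Hsp90aa1*. From Day 3 to Day 5, 6 of the 10 rose and 2 fell in WT recipients, beside 29.5% and 27.1% of all genes. In *Il6-/-* recipients 4 rose and 2 fell, beside 30.4% and 30.1%. *Nfkbiz* rose by 0.27 (FDR = 0.0401, kept in 4 of 12 fits without 1 library) in WT recipients and by 0.87 (FDR = 5.45e-06) in *Il6-/-* recipients. *Arid5a* rose in *Il6-/-* recipients by 0.56 (FDR = 1.51e-04) and stood at 0.03 (FDR = 0.808) in WT recipients. The day changes of both genes differed between the genotypes, by 0.60 for *Nfkbiz* (FDR = 0.0362) and 0.53 for *Arid5a* (FDR = 0.0405). Across all genes 4.92% were called for this difference. *Tnfaip3*, which encodes the deubiquitinase A20, rose in both genotypes (0.95, FDR = 0.00126 and 1.30, FDR = 8.27e-05).

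IL-33 and TSLP are epithelial cytokines that act beside IL-25, and 3 of their 4 receptor genes were tested. *Crlf2*, which encodes the TSLP-binding chain, was at 24.3 ± 3.61 CPM for WT and 15.1 ± 1.90 CPM for *Il6-/-* recipients on Day 3 (-0.69, FDR = 0.00442). *Il7r*, which encodes its partner chain, was at 10.5 ± 1.76 and 16.0 ± 2.19 CPM (0.62, FDR = 0.0169, and 0.0604 to 0.0850 without WT Day 3 replicate 1 or 2 or *Il6-/-* Day 3 replicate 2). Neither was called between genotypes on Day 5 (FDR = 0.585 and 0.75). Both rose from Day 3 to Day 5, *Crlf2* by 1.27 for WT and 1.81 for *Il6-/-* recipients, and *Il7r* by 1.85 and 1.33, with FDRs of 2.53e-06 or less. *Il1rl1*, which encodes the IL-33 receptor ST2, had 0 to 3 counts in every library.

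Choline metabolism, in which *Chdh* acts, had 10 of 14 genes tested. Between genotypes 1 was called, lower on Day 3, beside 6.19% of all genes. *Slc44a2*, which encodes a choline transporter, was lower in *Il6-/-* recipients on Day 3 (-0.31, FDR = 0.0118, and 0.0682 without WT Day 3 replicate 2 or 0.0608 without *Il6-/-* Day 3 replicate 2). None of the 10 was called on Day 5 by edgeR, with or without that block, or by DESeq2, and 3 had an unadjusted p under 0.05. *Aldh7a1*, which encodes a dehydrogenase that turns betaine aldehyde into betaine, was at 6.54 ± 0.950 CPM for WT and 9.35 ± 0.993 CPM for *Il6-/-* recipients on that day (0.51, FDR = 0.113). It fell from Day 3 to Day 5 in WT recipients by 1.25 on the log2 scale (FDR = 2.28e-05). *Bhmt* and *Bhmt2*, which encode enzymes that use betaine or a related methyl donor, had 0 counts in all libraries. From Day 3 to Day 5, 3 genes rose and 4 fell in WT recipients, beside 29.5% and 27.1% of all genes. In *Il6-/-* recipients 3 rose and 3 fell, beside 30.4% and 30.1%.

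All 14 genes of the other INO80 subunits were tested. On Day 3, 3 were higher in *Il6-/-* recipients, beside 7.52% of all genes. These were *Ruvbl1* by 0.53 (FDR = 0.00766), *Ruvbl2* by 0.50 (FDR = 0.00574) and *Uchl5* by 0.52 (FDR = 0.00271). They encode the complex's ATPases of the AAA+ family and a deubiquitinase. On Day 5, 1 was lower, *Ino80b* (-0.72, FDR = 0.00627), beside 3.35% of all genes. From Day 3 to Day 5, 3 rose and 7 fell in WT recipients, beside 29.5% and 27.1% of all genes. In *Il6-/-* recipients 1 rose and 6 fell, beside 30.4% and 30.1%. *Ruvbl2* fell in both genotypes (-1.32, FDR = 1.22e-07 and -1.53, FDR = 2.65e-08).

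**Figure D5:**
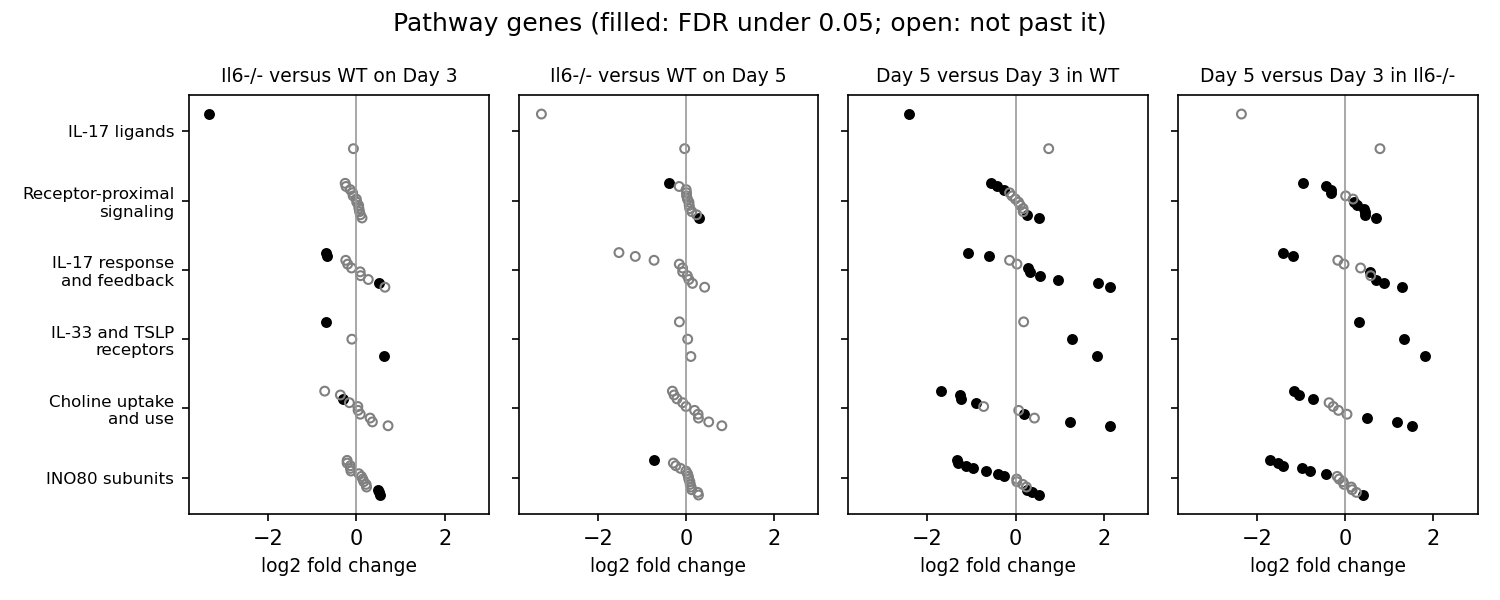
Fitted log2 fold changes (x axis) of the tested genes of 6 pathway lists in the 4 comparisons, with 1 point per gene, filled where the FDR was under 0.05. Filled points are few between genotypes, with *Il17f* farthest from 0 on Day 3, and many between days. Across all genes calls were likewise fewer between genotypes than between days.

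The genes whose pattern over the 12 libraries was most like that of *Il17rb* were, by Pearson correlation of log2 CPM, *Chdh* (0.94), *Il2rb* (0.93), *Dgcr6* (0.92), *Galm* (0.92) and *Erg* (0.90). *Il2rb*, which encodes the IL-2 receptor β chain, was at 556.6 ± 11.4, 603.8 ± 11.0, 592.5 ± 48.5 and 720.3 ± 43.2 CPM in WT Day 3, *Il6-/-* Day 3, WT Day 5 and *Il6-/-* Day 5. The genes most like *Chdh* were *Il17rb*, *Ccng1* (0.93), *Galm* (0.90), *Dgcr6* (0.90) and *Il2rb* (0.89). *Actr8* ranked 29 of 13569 in likeness to *Chdh* (0.79) and 186 in likeness to *Il17rb* (0.71). The genes most like *Il17re* were *Cpm* (0.96), *Tnfrsf25* (0.95), *Trp53i13* (0.95), *Il22* (0.94) and *Cd163l1* (0.93). *Il22*, which encodes a Th17-associated cytokine, was at 1.96 ± 0.365 CPM in WT recipients on Day 3 and 0.846 ± 0.785 on Day 5, and had 0 in every library from *Il6-/-* recipients. *Tnfrsf25*, which encodes death receptor 3, was at 55.7 ± 4.15 and 44.5 ± 7.22 CPM in WT recipients and 16.7 ± 3.96 and 27.1 ± 1.82 CPM in *Il6-/-* recipients on Day 3 and Day 5. *Il17ra* ranked 10 of 13569 in likeness to *Il17re* (0.89). The 12 points share the 4 groups and the scaling, so these values describe the pattern only.

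The sorted cells carried CD4 T-cell transcripts, and the list of 7 genes summed to 5915 to 7066, 5486 to 5590, 11106.5 to 11305 and 9532 to 10594 CPM in WT Day 3, *Il6-/-* Day 3, WT Day 5 and *Il6-/-* Day 5. The sum, with *Trac* as its largest part, was lower in *Il6-/-* recipients with no overlap on either day. Not every gene of the list went this way, and those that did not were not called. *Cd44* was higher in *Il6-/-* recipients on Day 3 (0.12, FDR = 0.319) and on Day 5 (0.05, FDR = 0.755). *Cd4* was higher in them on Day 5 (0.11, FDR = 0.372). On Day 3 *Trac* (-0.34, FDR = 0.00928) and *Cd28* (-0.48, FDR = 0.00181) were lower in *Il6-/-* recipients, and on Day 5 *Cd3d* was (-0.37, FDR = 0.0366). All 7 rose from Day 3 to Day 5 in both genotypes, beside 29.5% of all genes in WT and 30.4% in *Il6-/-* recipients. In bulk cells, fewer cells of a type and less RNA per cell cannot be told apart. Of the B-cell genes tested, *Cd79a* was at 0.546 to 0.939, 0.159 to 1.27, 2.54 to 2.86 and 1.99 to 2.96 CPM in WT Day 3, *Il6-/-* Day 3, WT Day 5 and *Il6-/-* Day 5. *Cd79b* was at 3.55 to 6.73, 5.78 to 7.06, 2.75 to 4.61 and 3.49 to 7.38 CPM, and *Pax5* at 0.742 to 0.923, 0 to 0.371, 1.53 to 2.59 and 1.06 to 2.29 CPM in these groups. In the same order of groups, the myeloid list of 7 genes summed to 97.9 to 104.0, 97.5 to 100.0, 115.0 to 155.9 and 119.5 to 125.8 CPM, most of it *Cst3*. *Itgax* had 0 to 2 counts in every library, whereas *Lyz2* had 54 to 602 and *Csf1r* 16 to 217. The list of 4 CD8 T and NK genes summed to 62.2 to 74.0, 82.8 to 112.3, 87.0 to 108.5 and 80.2 to 97.7 CPM, most of it *Cd8b1*. *Cd8a* had 0 to 32 counts and *Ncr1* 0 to 1 counts. *Klrb1c* of this list was higher in *Il6-/-* recipients on Day 3 (2.11, FDR = 7.74e-06) and lower on Day 5 (-0.60, FDR = 0.0497). The lung epithelium list of 6 genes summed to 1.09 to 2.42, 0.634 to 14.8, 3.32 to 23.3 and 6.67 to 10.8 CPM. The stroma and endothelium list of 7 genes summed to 114.9 to 118.7, 83.2 to 90.3, 136.5 to 148.1 and 124.2 to 153.3 CPM, most of it *Pecam1*, which T cells also express. On Day 5 none of the tested genes of the B-cell, myeloid, epithelial and stromal lists was called between genotypes by edgeR or DESeq2 (1 B-cell gene and none of the others had an unadjusted p under 0.05), and 1 of 3 CD8 T and NK genes was called lower. On Day 3, by edgeR, 1 tested gene of each of the B-cell, CD8 T and NK, epithelial and stromal lists was called between genotypes, and none of the 4 myeloid genes tested, none of which had an unadjusted p under 0.05 or was called by DESeq2. The part of other cells in the results above was not tested.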

How the data were processed

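Bulk RNA of sorted OTII cells was sequenced in 12 libraries, 3 per group, as single-end reads. Per the labels and the study's methods, the authors used Trim Galore 0.4.4 for trimming, STAR 2.5.2a for alignment (GRCm39) and HTSeq 0.6.1p1 for unstranded gene counts, which were deposited raw. The annotation release and overlap mode are not given in the sources used here. A deposited table of log2 CPM was not used. The 5 summary lines of each count file were left out. Of the counted alignments 60.2 to 62.2% (Day 3) and 52.5 to 56.7% (Day 5) fell on genes, and 1.96 to 2.28% were ambiguous.

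Counts were analysed with R 4.3.3 and edgeR 4.0.16 (filterByExpr, TMM, glmQLFit and glmQLFTest on 1 model of the 4 groups), checked on simulated counts. An SE is the log2 fold change divided by the square root of its F statistic. An exact permutation test of 3 against 3 libraries cannot go below p = 0.1 and was not used. The summed level of the B-cell list is not reported here. The members and gene lists were chosen with earlier results of these data known. Genes named are the 7 members, overlapping genes, pathway genes past an FDR of 0.05 in some comparison or given by count, and the 5 genes most correlated with *Il17rb*, *Il17re* and *Chdh*. Positions came from GENCODE vM39 and promoters from RefSeq. No 2 libraries of a group agreed within sampling noise (chi-square per degree of freedom 5.24 to 29.7). The labels give the groups shared replicate numbers with no stated basis. Deviations of same-numbered libraries correlated at 0.13 to 0.24 between the Day 5 groups, over 0.1 in all 3 pairs, and at -0.14 to 0.071 between other groups. The main fit had no replicate term, so values are unpaired unless a block is named. For the Day 5 pairs a replicate block was fitted as an alternative only. Alternatives were other scalings (RLE, upper quartile), other filters, DESeq2 1.42.0, a replicate block over all libraries or within Day 5, the compared groups alone and leaving out each library.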

Additional observations from a re-analysis of the deposited data

Results flagged for a closer look

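The change from Day 3 to Day 5 differed between recipient genotypes, by edgeR's test of the difference at an FDR under 0.05, for 2 pathway genes. Across all genes 4.92% were called in either direction. Both genes belong to the list of 10 IL-17 response genes, and no gene of the other pathway lists was called. The lists were chosen with earlier results of these data known, so nothing is read from this count. *Nfkbiz* rose more in *Il6-/-* than in WT recipients by 0.60 on the log2 scale (FDR = 0.0362) and *Arid5a* by 0.53 (FDR = 0.0405). Both were lower in *Il6-/-* recipients on Day 3, and neither was called between genotypes on Day 5. Leaving out 1 library took the FDR up to 0.106 for *Nfkbiz*, which kept its call in 4 of 12 such fits, and up to 0.113 for *Arid5a*, which also kept it in 4. The cause of these differences was not tested.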

How the results depend on the processing

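The change from Day 3 to Day 5 in WT recipients was the least stable result: 1 of the 7 genes was past an FDR of 0.05, against 2 with upper-quartile scaling and 0 without the low-count filter, with a filter that asks 3 libraries to exceed 1 CPM (which removes *Il17rc* and *Il17rd*), with DESeq2 or with either replicate block, and 0 to 1 when single libraries were left out. Upper-quartile scaling reversed the near-zero changes of *Il17ra* (0.0912), *Chdh* (0.0879) and *Actr8* (0.114) there. In *Il6-/-* recipients it raised the count from 3 to 5, and *Il17rc* ranged from -0.70 to 1.78 when single libraries were left out, turning negative without *Il6-/-* Day 3 replicate 1 or 3 or *Il6-/-* Day 5 replicate 3. For the difference of the day changes the count was 3, and 1 to 3 when single libraries were left out. It was 1, *Il17rb*, without any of WT Day 3 replicates 1, 2 and 3, WT Day 5 replicates 1 and 2 and *Il6-/-* Day 3 replicates 1 and 2. The genotype counts of the 7 genes were 3 on each day. With the replicate block within Day 5 the Day 5 count was 5, adding *Il17ra* and *Actr8*, and both counts stayed within 1.5 times under the other alternatives, while the differences of *Il17rb*, *Chdh* and *Il17re* kept their sign. That bound does not show which genes were called. On Day 3 *Il17rb* was called in 7 of 12 fits without 1 library, and *Chdh*, not called in the main fit, in 2 of 12. On Day 5 *Il17re* was called in 11 of 12. These calls and signs describe the fits only. They give no support to the genotype differences of the 7 genes or to the differences of their day changes. The genes were chosen with the genotype differences known.

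Over all genes, the Day 5 genotype calls were 626, and 1397 without the filter, 1063 with DESeq2, 1487 with the replicate block within Day 5, 359 from the compared groups alone and 225 to 1169 when single libraries were left out. The Day 3 calls were 1861, and 2571 with that block and 942 to 2042 when single libraries were left out. The day-change differences were 668, and 1300 without the filter, 1081 with DESeq2, 1452 with that block and 235 to 943 when single libraries were left out. The share of calls that were higher moved with upper-quartile scaling from 54.9 to 44.8% for the Day 3 genotype comparison, from 52.1 to 66.5% and from 50.2 to 65.0% for the day changes in WT and *Il6-/-* recipients, and from 36.5 to 47.2% for their difference. For the Day 5 genotype comparison it was 27.5%, and 42.9% with DESeq2, 42.5% without the filter, 46.2% with the replicate block within Day 5, 15.3% from the compared groups alone, and 49.9% without *Il6-/-* Day 5 replicate 1.

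The block within Day 5 and the canonical lengths were chosen after seeing the data. Each call of a pathway gene was counted once per alternative setting. Of these pairs of call and setting, 1447 stayed and 148 were lost, with none reversed. Some calls were lost under several settings. Depth limits *Il17rc*, *Il17rd* and *Il17re*.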
